A study of Mus musculus with 50 samples.

Results

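The cytosolic ribosomal protein genes of the mouse left ventricle were described in 50 hearts, as the genes named Rpl or Rps with a digit plus Rpsa, Rplp0, Rplp1 and Rplp2. Pseudogene entries, the Rps6k kinases, Rpl3 and its muscle paralogue Rpl3l were left out, and an FPKM (fragments per kilobase of exon, scaled to sequencing depth) of at least 1 in 5 or more libraries was asked for. The rule gave 87 of 35717 genes in the table, among the 11628 genes that met the same limit and were tested. The name rule also took in genes that are not ribosomal proteins of the standard set. By name and gene model the 87 were 76 standard ribosomal protein genes (45 of the large and 31 of the small subunit), 4 paralogues (Rpl7l1, Rpl22l1, Rpl36al and Rps27l), 6 intronless or duplicated copies (Rps4l, Rps27rt, Rpl37rt, Rps3a2, Rps3a3 and Rpl6l) and Rps19bp1, a protein named for its binding to RPS19. Just inside the limit lay Rpl22l1, at 1 FPKM or more in 36 libraries with a mean of 1.21 FPKM, and Rps3a3, with a mean of 1.83 FPKM in 50 libraries. Just outside lay Rpl32l, which reached 1.18 FPKM in 1 library, and Rpl39l and Rps23rg1, whose highest values were 0.246 and 0.368 FPKM.

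The hearts came from LARP6 transgenic mice (Tg) or wild-type littermates (WT), on a C57BL/6J background at 40 weeks of age, each infused with angiotensin II (Ang II, 1000 ng per kg body weight per min) or sterile saline and taken after 21 days. Per the series title the transgene overexpresses LARP6 in cardiomyocytes, and the promoter that drives it and the number of founder lines are not given in the sources used here. The groups were Tg Ang II (n = 13, 7 female and 6 male), Tg saline (n = 12, 6 and 6), WT Ang II (n = 14, 7 and 7) and WT saline (n = 11, 5 and 6). Each library has its own number and was taken as 1 animal. Paired-end libraries were made from poly(A) RNA of the left ventricle, and they held 53877439 to 91579342 gene counts each. Of these counts 28.1% to 38.8% fell on transcripts of the mitochondrial genome.

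Larp6 itself separated the genotypes, apart from 1 library. In FPKM scaled between libraries by a median-of-ratios factor (scaled FPKM, used for every level below), Larp6 stood at a lowest, median and highest of 586, 953 and 1187 in Tg Ang II hearts and 369, 975 and 1624 in Tg saline hearts, against 19.7, 38.0 and 1017 in WT Ang II hearts and 5.60, 32.4 and 63.9 in WT saline hearts. The library labelled WT Ang II with number 329 held the value of 1017, and the next highest WT Ang II library held 63.1. Its column name also carries the transgenic letters. A second library, number 847, is labelled Tg Ang II while its column name carries the wild-type letters, and at 1127 its Larp6 level lay in the Tg range. Another, number 965 (Tg saline, male), had the lowest Larp6 of all Tg libraries and stood apart in the ribosomal protein genes. Values are therefore given with and without library 965, and with and without libraries 329 and 847 where these matter.

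The ribosome is built of a small subunit, which reads the mRNA, and a large subunit, which joins amino acids, and most of its proteins are needed in equal number. Their mRNAs begin with a run of pyrimidines, the terminal oligopyrimidine or TOP motif, through which mTORC1 signalling and the La-related protein LARP1 set their translation and stability. LARP6 is another member of the La-related family, known for binding collagen mRNAs.

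RefSeq sequence around the annotated start (GRCm38.p6) was available for 64 of the 87 genes. An unbroken run of 8 or more C or T on the gene's own strand that covers the first base was found in 17 of 64 (26.6%). This compares with 408 of 8389 tested genes outside the set (4.86%) and 4.59% of all 27025 windows in the table. With a run anywhere from the first base to 50 bases downstream the shares were 44 of 64 (68.8%) and 20.7%. The following starts belong to genes described below. Each shows 30 bases of the gene's own strand with the annotated first base at the 16th position, and the C/T run is in capitals.
Rps6 (chr4:86857353-86857382, minus strand): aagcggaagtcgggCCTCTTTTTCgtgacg
Rpl38 (chr11:114668565-114668594, plus strand): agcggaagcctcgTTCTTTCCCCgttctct
Rps18 (chr17:33955651-33955680, minus strand): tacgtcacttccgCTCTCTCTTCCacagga
Rplp2 (chr7:141447636-141447665, plus strand): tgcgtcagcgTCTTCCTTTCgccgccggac
Rpl7a (chr2:26910792-26910821, plus strand): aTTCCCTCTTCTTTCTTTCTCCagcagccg
In Rps12 no run covers the annotated first base (chr10:23787209), and the run of 11 begins at base 9, counted from 1 at the first base, so its 30 bases are taken downstream.
Rps12 (chr10:23787175-23787204, minus strand): cggCCTTTTCCCCTgccgccgccgacttgc
A match in this window is a description of its letters and does not say where transcription starts in these hearts.

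Levels spanned a wide range. By mean scaled FPKM over the 50 libraries the 3 most abundant members were Rplp0 (250.5), the base of the large subunit's stalk, Rps3a1 (227) and Rps15 (204), and the 3 least abundant were Rpl22l1, Rps3a3 and Rpl37rt. The deposited FPKM divide by the whole exon length of the gene model, which for some members is far longer than the mRNA. Per base of the principal annotated mRNA, Rps2 ranked first at 342, followed by Rplp0 at 306 and Rpsa at 258. The members also varied more between hearts of 1 group than other genes did, with a median within-group SD of 0.229 (log2) over the 87, against 0.177 over all genes tested. Without library 965 these were 0.200 and 0.170. Much of the spread was shared, since 1 component held 48.1% of the members' within-group variance (40% without library 965). The same share is not given for other genes, so it is not shown to be particular to the members. Since the members share spread, counts of members with 1 sign in the comparisons below are not separate results. The share of all genes with that sign is not given beside them.

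The members' share of all counts was lowest in WT saline hearts. It averaged 0.830% ± 0.0724 in Tg Ang II hearts (SD, n = 13), 0.837% ± 0.116 in Tg saline hearts (n = 12), 0.812% ± 0.103 in WT Ang II hearts (n = 14) and 0.701% ± 0.0957 in WT saline hearts (n = 11). The lowest, median and highest were 0.702, 0.832 and 0.959% in Tg Ang II, 0.670, 0.827 and 1.13% in Tg saline, 0.652, 0.813 and 1.01% in WT Ang II and 0.569, 0.687 and 0.912% in WT saline. All 4 groups overlap in this share. Library 965 held the highest share of Tg saline hearts and library 329 that of WT Ang II hearts. Without them the means were 0.811% ± 0.0751 in Tg saline and 0.796% ± 0.0894 in WT Ang II. With mitochondrial transcripts taken out of the total the shares were 1.21, 1.23, 1.22 and 1.10% in the same order of groups. In a bulk tissue, fewer cells of a type and less RNA per cell cannot be told apart.

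**Figure D1:**
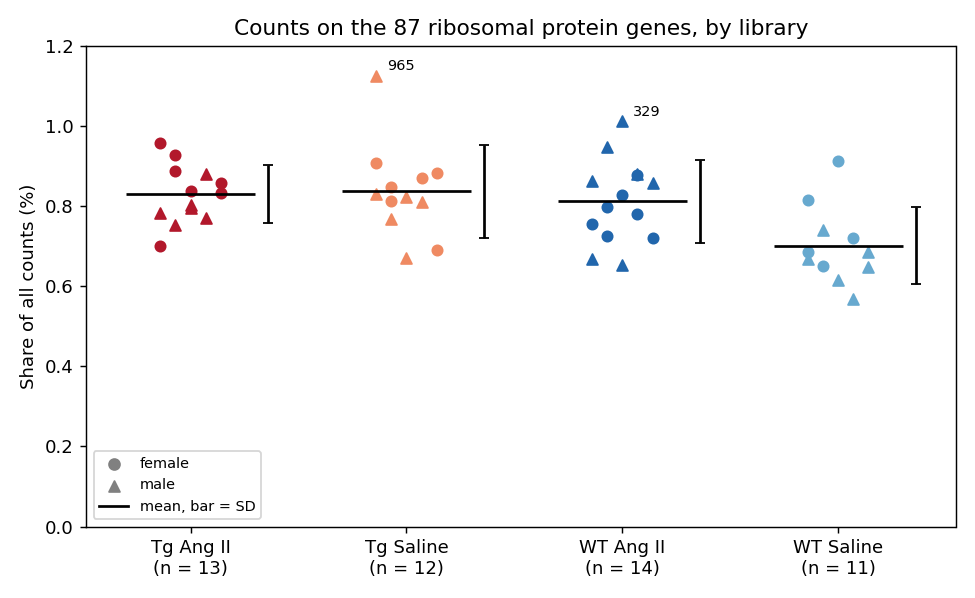
Share of each library's counts that fell on the 87 ribosomal protein genes (vertical axis, percent) for the 4 groups, with females as circles, males as triangles, the mean as a line and the SD as a bar. WT saline hearts average 0.701%, below the other groups, the groups overlap, and libraries 965 and 329 are the highest of their groups.

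The hearts that lay highest did not come from 1 group. Taking the median over the members of each library's deviation from the mean of all libraries (log2), library 965 stood at 0.59, the library labelled WT Ang II with number 329 at 0.45 and number 328, also WT Ang II, at 0.32. At the low end WT saline number 776 stood at -0.40, WT Ang II number 296 at -0.29 and Tg saline number 716 at -0.28. The SD of this measure between libraries of a group was 0.173.

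Under saline, many ribosomal protein mRNAs were higher in Tg than in WT hearts when all libraries were used, while Rps2 and Rpl7a were lower. In the fit across all genes (edgeR's quasi-likelihood test, Benjamini-Hochberg adjusted p under 0.05, sexes weighted equally), 37 of the 87 rose in Tg saline hearts, against 20.4% of all genes tested, and 2 fell, against 20.2%. The median log2 fold change of Tg over WT was 0.22 for the members and 0.00 for all genes, and 80 of the 87 were positive. Of the 76 standard genes 33 rose and 2 fell, with 20 and 1 of the 45 large-subunit and 13 and 1 of the 31 small-subunit genes. Among the remaining 11, Rps27l, Rpl36al, Rpl37rt and Rps19bp1 rose. Lists of macrophage and fibroblast markers rose in the same comparison, in 10 of 11 and 12 of 12 genes, and their part in these results was not tested.

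Library 965 carried much of this. Without it 14 members rose, against 18.8% of all genes, and 2 fell, against 19.4%, and the median was 0.12. The 16 genes called without library 965 were all among the 39 called with it. Among those that rose were Rpl10, Rpl12, Rpl22, Rpl31, Rpl37, Rpl37a, Rpl39, Rpl41, Rps12, Rps16 and Rps19bp1, and Rps2 and Rpl7a fell. Once this library was left out, the share of members that rose was thus no higher than that of all genes. Of the other 49 libraries, leaving out WT saline numbers 719 and 776 also moved the count by over 1.5 times, to 21 and 24 members that rose. With 10 clusters of neighbouring library numbers (a gap of more than 20 starts a new cluster) as a covariate, 11 rose, against 17% of all genes, and 3 fell, against 17.1%, with a median of 0.15.

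**Figure D2:**
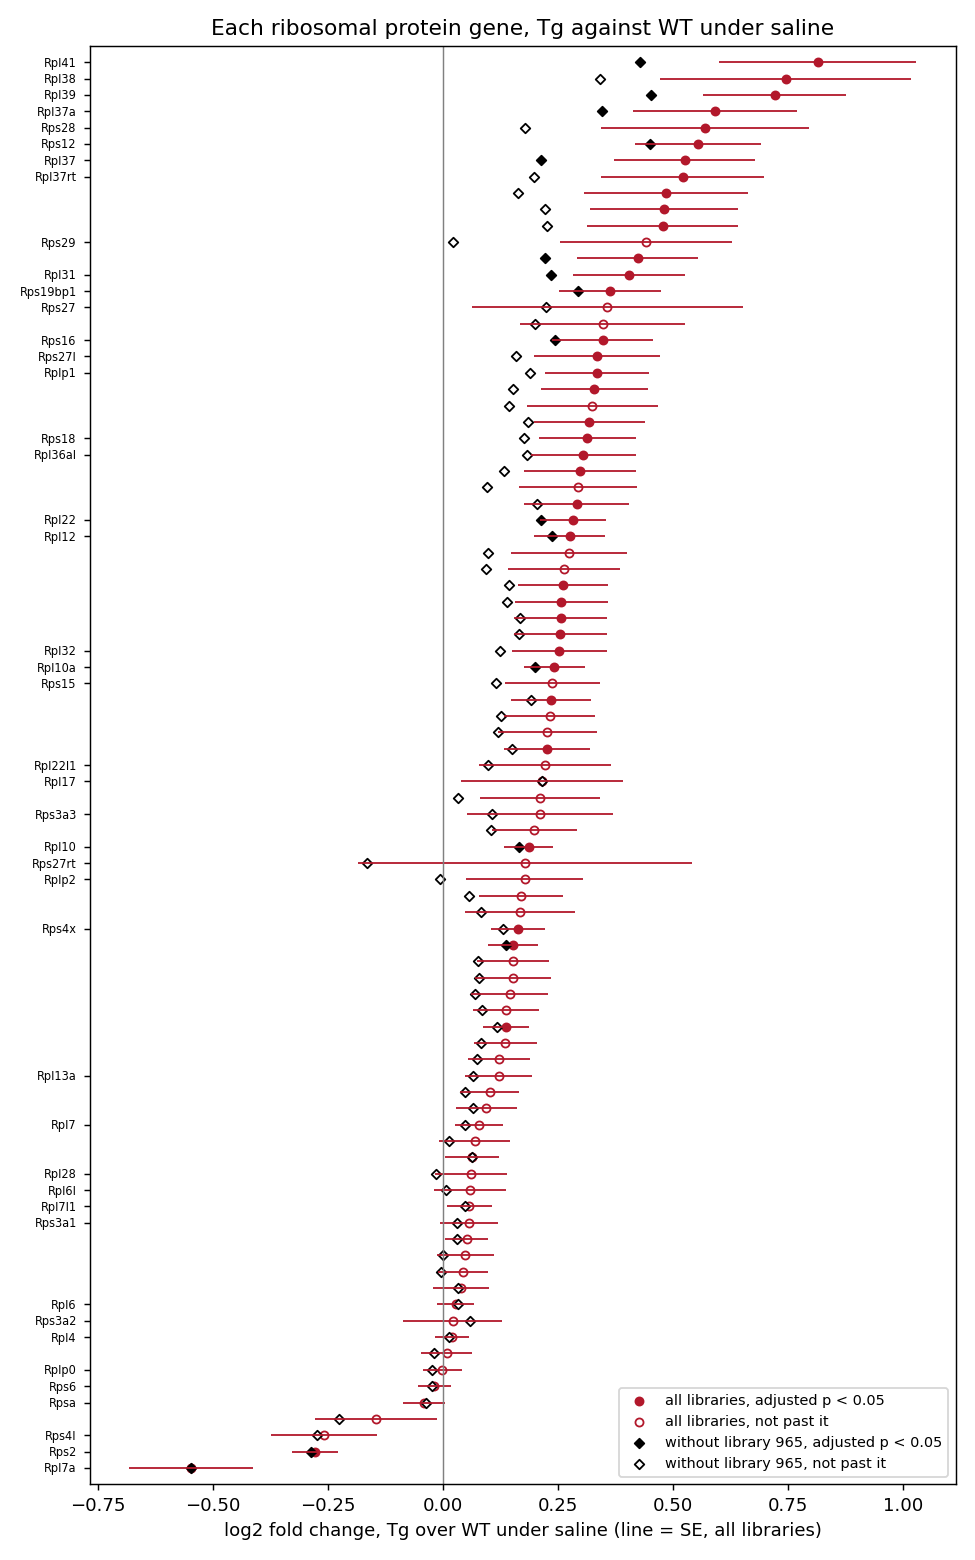
Log2 fold change of Tg over WT under saline for each of the 87 genes (horizontal axis), with all libraries in red (lines are the SE) and without library 965 in black, filled where the adjusted p was under 0.05 and named for a selection of genes. Most genes lie right of 0 and move left without library 965, while Rps2 and Rpl7a stay left of 0.

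The 6 largest rises were those of Rpl41, Rpl38, Rpl39, Rpl37a, Rps28 and Rps12. Rpl41 (ENSMUSG00000093674), the shortest of the ribosomal proteins, lies on chromosome 10 (chr10:128548114-128549162, minus strand, in the build of GENCODE M21). Its level had a lowest, median and highest of 23.4, 36.2 and 146 in Tg saline hearts and 21.6, 25.2 and 34.04 in WT saline hearts, a log2 fold change of 0.81 ± 0.214 (SE, adjusted p = 0.00199). Here 7 of 12 Tg saline hearts lay above every WT saline heart, and library 965 at 146 was far from the next Tg saline heart at 52.8. Without library 965 the Rpl41 change was 0.43 (adjusted p = 0.0176).

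Rpl39, which lines the exit tunnel of the large subunit, had 4.21, 6.58 and 20.9 in Tg saline hearts and 3.41, 4.57 and 6.61 in WT saline hearts. Its change was 0.72 ± 0.155 (adjusted p = 0.000208), and 0.45 without library 965 (adjusted p = 0.000181), when the highest Tg saline heart stood at 7.62. With all libraries, 6 of 12 Tg saline hearts lay above all WT saline hearts. Rps12, a protein of the head of the small subunit, had 7.22, 13.0 and 20.3 in Tg saline hearts and 5.37, 9.23 and 12.8 in WT saline hearts. It changed by 0.55 ± 0.136 (adjusted p = 0.000983; 0.45 without library 965), with 7 of 12 Tg saline hearts above every WT saline heart.

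Rpl37a, Rpl38 and Rps28 were the others of the 6. Rpl37a, a zinc-binding protein of the large subunit, changed by 0.59 ± 0.178 (adjusted p = 0.00652), and by 0.35 without library 965 (adjusted p = 0.0456). Rpl38, known for its part in the translation of Hox mRNAs in the embryo, changed by 0.74 ± 0.273 (adjusted p = 0.0259), with 9.97, 17.5 and 62.5 in Tg saline hearts and 6.61, 12.3 and 18.7 in WT saline hearts. Rps28, of the small subunit's head, changed by 0.57 ± 0.226 (adjusted p = 0.0395), with 2.90, 5.02 and 24.1 in Tg saline hearts and 1.68, 4.49 and 6.59 in WT saline hearts. For Rpl38 and Rps28 the groups overlap, and neither passed the test without library 965 (0.34, adjusted p = 0.235, and 0.18, adjusted p = 0.414). The gene span of Rps28 overlaps that of Kank3, and the strand setting of the counts is not given in the sources used here. Kank3 itself fell in Tg saline hearts (-0.46 ± 0.104, adjusted p = 0.000382), and its part in the Rps28 counts was not tested. Rps29, chosen after its values were seen, shows the same library in the extreme: it had 18.3, 21.5 and 108 in Tg saline hearts and 16.02, 21.5 and 25.8 in WT saline hearts, and without library 965 its change was 0.02 (adjusted p = 0.861).

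Rps2 and Rpl7a went the other way, and they did so in every comparison of Tg with WT hearts. Rps2 (ENSMUSG00000044533, chr17:24718116-24721926, plus strand) encodes a protein at the mRNA entry of the small subunit. It had 145, 158 and 185 in Tg saline hearts and 169.6, 194 and 242 in WT saline hearts, and it fell by 0.28 ± 0.0496 on the log2 scale (adjusted p = 1.54e-05). All 12 Tg saline hearts lay below the WT saline median and 9 lay below every WT saline heart. Under Ang II it had 145, 172 and 201 in Tg hearts and 187, 210.2 and 232 in WT hearts, with a log2 fold change of -0.28 ± 0.0459 (adjusted p = 4.59e-06). All 13 Tg Ang II hearts were below the WT Ang II median. The library labelled WT Ang II with number 329, which carries Tg-like Larp6, held 207 for Rps2 and 52.4 for Rpl7a, above every Tg heart. Its Rpl3l, at 29.96, lay below all other WT Ang II hearts (40.9 to 83.3). It was within the range of Tg Ang II hearts (18.8 to 43.7). Its Rpl3, at 75.4, lay above all other WT Ang II hearts (35.0 to 57.5) and above all Tg Ang II hearts (51.9 to 70.55). The genotype of library 329 was not tested. The span of Rps2 also holds small nucleolar RNA genes and Snhg9, whose own median was 0 in every group.

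Rpl7a (ENSMUSG00000062647, chr2:26910764-26913318, plus strand), a large-subunit protein whose start sequence is given above, had 16.5, 21.6 and 31.6 in Tg saline hearts and 23.1, 30.1 and 45.7 in WT saline hearts. It fell by 0.55 ± 0.135 (adjusted p = 0.00107), and 10 of 12 Tg saline hearts lay below every WT saline heart. Under Ang II its change was -0.33 ± 0.125 (adjusted p = 0.0336), with 3 of 13 Tg hearts below every WT heart. Without libraries 329 and 847 this change was -0.29 (adjusted p = 0.0541), so that call under Ang II rests on them.

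Copies elsewhere in the genome share sequence with these genes. There are 249 such copies for 59 members, named after them as pseudogenes or near-identical genes, and for 18 members the copies held 10% or more of the member's own counts. For Rpl17 they held 570%, for Rpl7a 139%, for Rps12 105% and for Rps27 89.1% of the member's counts. In Tg saline hearts Rpl7a averaged 2920 scaled counts and its copies 5330, against 4274 and 4969 in WT saline hearts. With each member's counts summed with those of its copies (an alternative chosen after the data were seen), Rpl7a still fell, by 0.17 ± 0.045 on the log2 scale under saline (adjusted p = 0.0022) and by 0.16 ± 0.0416 under Ang II (adjusted p = 0.00263). Its change is thus smaller by more than 1.5 times when copies are counted in. Rps2 hardly moved, at -0.27 ± 0.0472 under saline (adjusted p = 8.41e-06) and -0.28 ± 0.0436 under Ang II (adjusted p = 2.86e-06). The sum for Rps12 rose by 0.41 ± 0.102 under saline (adjusted p = 0.00108). Summing also narrowed the spread between hearts of a group (library 965 left out), for Rps27 to a log2 SD of 0.175, against 0.763 for the member alone, and for Rpl17 to 0.110, against 0.429. Over all sums, 37 of 82 rose and 2 fell in Tg saline hearts, against 20.6% and 20.3% of 11539 features, and without library 965 14 rose and 2 fell, against 19% and 19.5%.

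**Figure D3:**
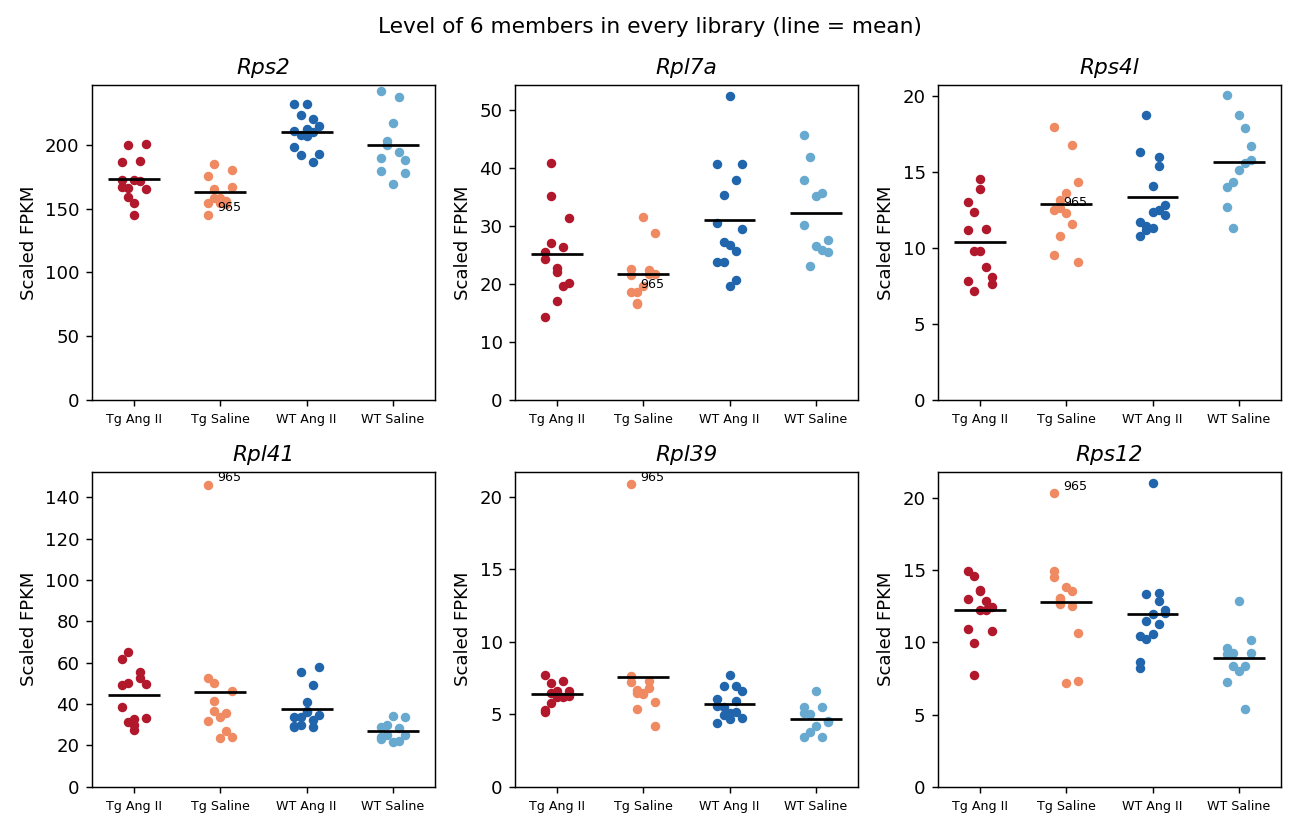
Level of 6 ribosomal protein genes in every library (vertical axes, scaled FPKM) for the 4 groups, with the group mean as a line and library 965 marked. Rps2 and Rpl7a are lower in both Tg groups than in the matching WT groups, Rps4l is lowest in Tg Ang II hearts, and for Rpl41, Rpl39 and Rps12 the WT saline hearts lie lowest.

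The stalk and the genes often used as references for other mRNAs were not uniform. Rplp0, to which the stalk proteins Rplp1 and Rplp2 bind, had 215, 236 and 254 in Tg saline hearts and 219.5, 242 and 276 in WT saline hearts, with a log2 fold change of -0.0006 (SE 0.0418, adjusted p = 0.993). Rplp1 rose by 0.33 ± 0.113 (adjusted p = 0.0154), and had 0.19 without library 965 (adjusted p = 0.0792), while Rplp2 had 0.18 ± 0.127 (adjusted p = 0.271). Among the other genes used for normalisation, Rps18 (0.31 ± 0.105, adjusted p = 0.0142) and Rpl32 (0.25 ± 0.104, adjusted p = 0.0479) rose. Neither passed without library 965, at 0.18 (adjusted p = 0.0686) and 0.13 (adjusted p = 0.231). Rpl4 (0.02 ± 0.0361, adjusted p = 0.692) and Rpl13a (0.12 ± 0.0729, adjusted p = 0.182) did not pass the test. Rps6, the small-subunit protein phosphorylated by the S6 kinases, had -0.02 ± 0.0355 (adjusted p = 0.708), and Rpsa, the laminin receptor protein of the small subunit, had -0.04 ± 0.0459 (adjusted p = 0.499).

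Of the paralogues and other name matches, Rps27l (0.34 ± 0.137, adjusted p = 0.046), Rpl36al (0.31 ± 0.114, adjusted p = 0.0292) and Rpl37rt (0.52 ± 0.177, adjusted p = 0.0158) rose with all libraries and none of them passed without library 965. Rps19bp1 rose by 0.36 ± 0.111 (adjusted p = 0.00768) and by 0.29 without library 965 (adjusted p = 0.026). It had 2.89, 3.62 and 4.62 in Tg saline hearts and 2.04, 2.85 and 3.93 in WT saline hearts, and the groups overlap. Rpl22l1 and Rpl7l1, the paralogues of Rpl22 and Rpl7, had 0.22 ± 0.143 (adjusted p = 0.218) and 0.06 ± 0.0498 (adjusted p = 0.371). Rps3a2, Rps3a3, Rpl6l and Rps27rt did not pass, at 0.02 to 0.21.

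The size of the difference ran with mRNA length. In Tg over WT under saline the median log2 fold change was 0.35 for the 20 members with mRNAs of up to 500 bases, 0.26 for the 22 above that and up to 700, 0.14 for the 23 above 700 and up to 1000, and 0.12 for the 17 longer ones. Other genes of the same length classes had smaller medians, from 0.16 for the 87 of up to 500 bases down to -0.02 above 2500 bases. Over the 82 members with a principal mRNA length, Spearman's rho between length and log2 fold change was -0.564, and -0.331 without library 965, given as a description over genes that share the same libraries. In library 965 the genes of up to 700 bases stood 0.78 (log2) higher relative to those above 2500 bases than in the mean of all libraries. With a length trend taken out of every library, 38 members rose, against 20.9% of all genes, and 3 fell, against 20.4%, with a median of 0.17. With library 965 left out of that fit 23 rose, against 19.8%, and 2 fell, against 19.7%, with a median of 0.11.

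**Figure D4:**
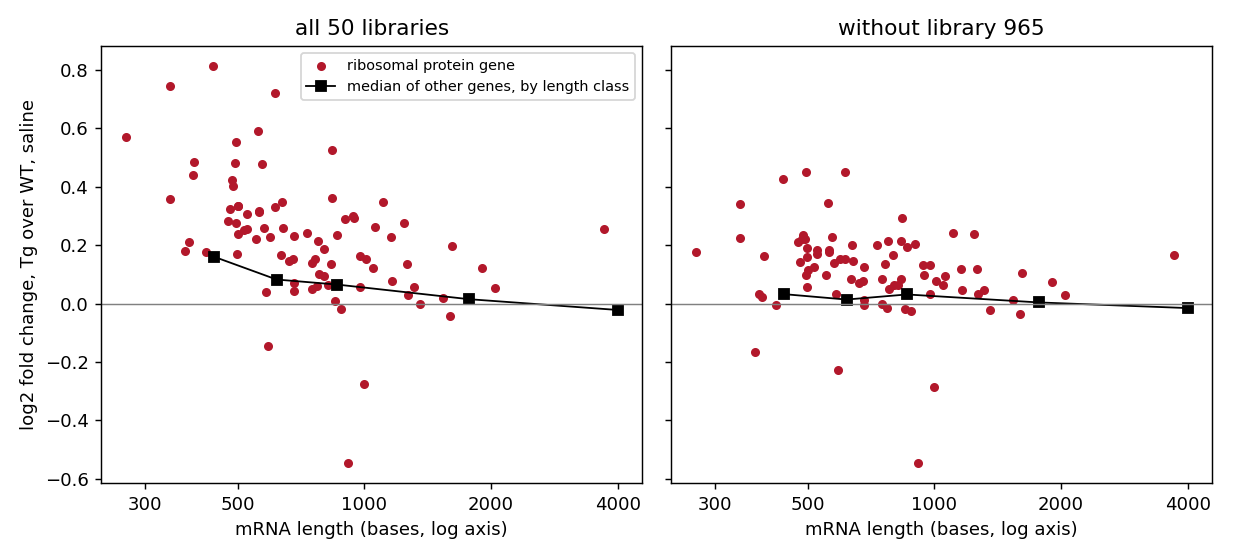
Log2 fold change of Tg over WT under saline (vertical axis) against principal mRNA length (horizontal axis, bases) for the ribosomal protein genes, with all 50 libraries on the left and without library 965 on the right, and black squares for the medians of other genes by length class. The shortest members lie highest, their class median being 0.35, and the slope is shallower without library 965.

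The genes with a C/T run over the annotated start were then set beside those without it, with no test of the difference. This split does not part TOP mRNAs from others, since 44 of 64 had a run there or within 50 bases downstream. Rps12, whose run begins at base 9, counts among those without. Of the 17 with the run 4 rose and 1 fell (median 0.20), the rises being near the 20.4% of all genes. Of the 47 without it 23 rose and 1 fell (median 0.23), and 20.2% of all genes fell. Without library 965, 0 rose and 1 fell of the 17 (median 0.10), and 13 rose and 1 fell of the 47 (median 0.13). Over all genes 18.8% rose and 19.4% fell in that fit. Of the starts shown above, Rpl38 and Rps18 rose, Rpl7a fell, and Rps6 and Rplp2 did not pass the test.

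The sexes were next compared, since the fits above weight them equally. In males alone 22 members rose in Tg saline hearts, against 9.95% of all genes, and 1 fell, against 8.62%, with a median of 0.36. In females alone 1 rose, against 13.3%, and 2 fell, against 13.5%, with a median of 0.05. Library 965 is a male, and without it 4 members rose in males, against 7.67% of all genes, with a median of 0.16. The difference between the sexes in this contrast passed for 0 members and 0 of 11628 genes. At an unadjusted p under 0.05 it counted 19 members, all with the smaller change in females, against 3.31% of all genes. Without library 965 it counted 3, against 2.50%.

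Ang II in WT hearts also went with higher ribosomal protein mRNA. In this comparison 15 members rose, against 9.71% of all genes tested, and 0 fell, against 8.87%. DESeq2 called 16 higher and 0 lower, and the share of all genes that it called is not given here. At an unadjusted p under 0.05 edgeR counted 35 higher and 1 lower, against 16.5% and 16% of all genes. The median log2 fold change of Ang II over saline was 0.16 for the members and 0.00 for all genes, and 83 of 87 were positive. WT saline hearts are also the controls of the comparison above, so the changes of Tg saline and of WT Ang II hearts share them.

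The library labelled WT Ang II with number 329 was the highest of its group for many members. Without libraries 329 and 847, 8 members rose, against 7.82% of all genes, a share near that of all genes, with a median of 0.13. Among them were Rpl4, Rpl6, Rpl7, Rpl17, Rplp0 and Rps12. Without library 965, which changes only the shared spread here, 24 rose, against 10.3%. With clusters of library numbers as a covariate 28 rose, against 9.11%. Single libraries moved the count to between 7 and 27. Those that moved it by over 1.5 times were number 329 (to 7), 718 (8), 719 (9) and 776 (9) at the low end, and 239 (27), 296 (24) and 965 (24) at the high end.

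Rpl17 (ENSMUSG00000062328, chromosome 18), a protein near the exit of the peptide tunnel, had the largest change. It had 10.4, 15.5 and 39.5 in WT Ang II hearts and 10.01, 11.2 and 17.2 in WT saline hearts, and rose by 0.56 ± 0.171 (adjusted p = 0.0181). The groups overlap. Summed with its copies, which hold most of these counts, its change was 0.16 ± 0.0455 (adjusted p = 0.00965), with means of 10210 and 9091 scaled counts in WT Ang II and WT saline hearts.

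Rps12 had 8.25, 11.7 and 21.0 in WT Ang II hearts and 5.37, 9.23 and 12.8 in WT saline hearts, and rose by 0.41 ± 0.131 (adjusted p = 0.0216). Library 329 held its highest value and the next stood at 13.4. Summed with its copies, Rps12 changed by 0.24 ± 0.0981 and did not pass (adjusted p = 0.074; 0.0286 without library 965). Rpl13a and Rpl10a rose by 0.21 ± 0.0706 and 0.19 ± 0.0646 (adjusted p = 0.031 and 0.0379). Without libraries 329 and 847 neither passed, with adjusted p of 0.0728 and 0.0974. Their groups overlapped, for Rpl13a with 51.5, 63.6 and 91.2 in WT Ang II hearts and 49.5, 56.0 and 72.3 in WT saline hearts.

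Smaller but tighter changes were found in abundant members. Rplp0 had 241.5, 264 and 307 in WT Ang II hearts and 219.5, 242 and 276 in WT saline hearts, and rose by 0.13 ± 0.0404 (adjusted p = 0.0201; 0.0475 without libraries 329 and 847). Rpl4 rose by 0.12 ± 0.0349 (adjusted p = 0.0139), and Rpl6, a large-subunit protein, by 0.15 ± 0.0389 (adjusted p = 0.00384), the lowest p of the set. Rplp1 (0.16, adjusted p = 0.313), Rplp2 (0.10, adjusted p = 0.615), Rps18 (0.18, adjusted p = 0.215) and Rpl32 (0.23, adjusted p = 0.0972) did not pass. Rpl41 had 29.0, 34.3 and 58.0 in WT Ang II hearts, of which 7 of 14 lay above every WT saline heart, and changed by 0.46 ± 0.206 (adjusted p = 0.109; 0.0145 without library 965).

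Males and females gave different counts here too. In males 14 members rose, against 2.89% of all genes, with a median of 0.28. Without library 965 this was 28, against 3.68%, and without libraries 329 and 847 it was 1, against 1.29%, with a median of 0.22. In females 0 rose, against 3.34%, and 0 fell, against 2.38%, with a median of 0.04 and, at an unadjusted p under 0.05, 3 higher and 2 lower, against 11.1% and 10.3% of all genes. The test of the difference between the sexes called 0 members and 0 genes, with a lowest adjusted p of 0.675 among members, and counted 23 at an unadjusted p under 0.05, all lower in females, against 3.31% of all genes.

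Within Tg hearts Ang II made little difference. In Tg Ang II against Tg saline hearts 0 members rose, against 4.88% of all genes, and 1 fell, against 4.04%. DESeq2 called 0 higher and 1 lower, with its share of all genes not given here. At an unadjusted p under 0.05 edgeR counted 1 higher and 12 lower, against 11.6% and 11.7% of all genes. The median was -0.08 with all libraries and 0.01 without library 965, when 0 members were called (0 also by the fit without libraries 329 and 847) and 3.94% and 3.16% of all genes were.

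The gene called was Rps4l (ENSMUSG00000063171, chr6:148354656-148355598, plus strand), a copy of Rps4x without introns that lies within the span of Tmtc1, on the opposite strand. Its level was lowest where Tg and Ang II met. It had 7.21, 9.83 and 14.6 in Tg Ang II hearts, 9.11, 12.6 and 18.01 in Tg saline hearts, 10.8, 12.5 and 18.8 in WT Ang II hearts and 11.3, 15.6 and 20.1 in WT saline hearts. Of 13 Tg Ang II hearts 9 lay below every WT saline heart, 7 below every WT Ang II heart and 5 below every Tg saline heart.

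Rps4l fell by 0.33 ± 0.11 with Ang II in Tg hearts (adjusted p = 0.0483; 0.0789 without library 965 and 0.0946 without libraries 329 and 847). With clusters of library numbers as a covariate it did not pass (-0.21, adjusted p = 0.335). It fell by 0.35 ± 0.106 in Tg against WT hearts under Ang II (adjusted p = 0.00934; 0.0143 without libraries 329 and 847; 0.0526 with the clusters) and by 0.59 ± 0.113 in Tg Ang II against WT saline hearts (adjusted p = 2.39e-05). In Tg against WT under saline it had -0.26 ± 0.115 (adjusted p = 0.0661; -0.33 and 0.0269 with the clusters), and with Ang II in WT hearts -0.24 ± 0.11 (adjusted p = 0.118). Tmtc1, around it, rose with Ang II by 0.46 ± 0.111 in Tg hearts (adjusted p = 0.00632) and by 0.35 ± 0.113 in WT hearts (adjusted p = 0.0245).

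Under Ang II, few members differed between Tg and WT hearts: 0 members rose, against 16.4% of all genes, and 3 fell (Rps2, Rpl7a and Rps4l), against 16.4%. DESeq2 called 0 higher and 4 lower, with its share of all genes not given here. At an unadjusted p under 0.05 edgeR counted 0 higher and 8 lower, against 20.7% and 21.3% of all genes. The median was -0.04. Without library 965, which lies outside both groups and enters through the shared spread, 5 fell, against 16.9%, Rpl28 and Rplp0 being added. Leaving out number 161 or 715 also gave 5 that fell, number 238 or 296 gave 6, and without libraries 329 and 847 2 fell, Rps2 and Rps4l, against 16.7%.

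**Figure D5:**
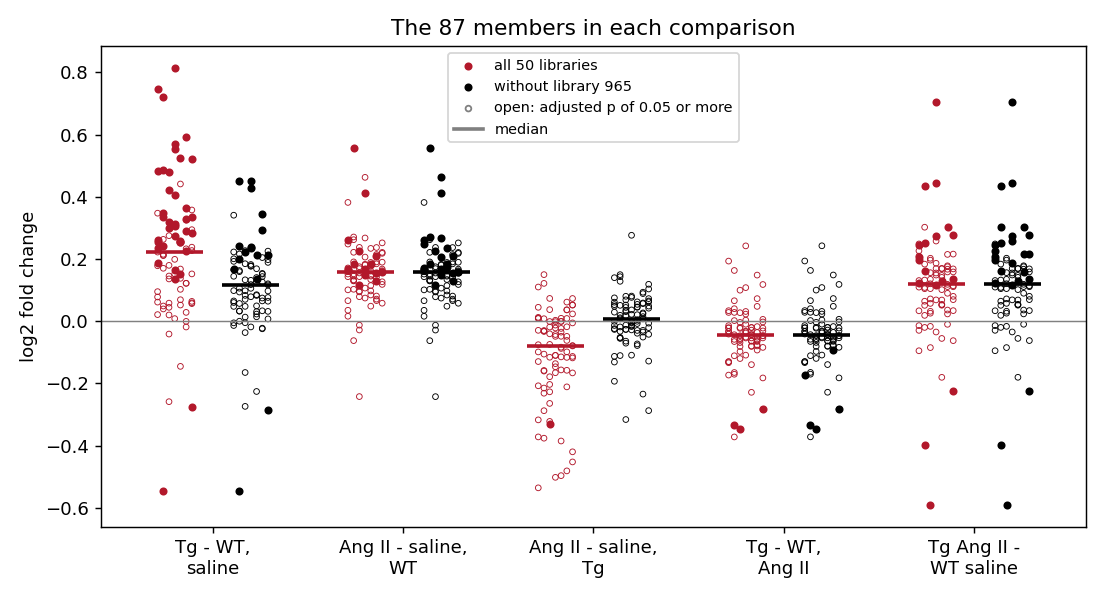
Log2 fold change of each of the 87 genes (vertical axis) in 5 comparisons, with all libraries in red and without library 965 in black, filled where the adjusted p was under 0.05 and with the median as a line. The medians lie above 0 in Tg and in Ang II hearts set against WT saline hearts, and near 0 for Ang II within Tg hearts without library 965.

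The response to Ang II was then set between the genotypes in 1 test. The difference of responses, Tg minus WT, passed for 0 members, against 0.043% of all genes. DESeq2 called 0 members as well, with its share of all genes not given here. At an unadjusted p under 0.05 edgeR counted 30 members, all lower, against 5.61% of all genes lower. The median difference was -0.25, negative in all but 1 of the 87, and -0.15 without library 965. The members share much of their spread, so these signs are not 87 separate results. In males it was -0.51 and in females 0.02. The lowest adjusted p was 0.304 for Rpl37rt (-0.70 ± 0.24), and for Rps12 the difference was -0.52 ± 0.184 (adjusted p = 0.335). Without library 965 these differences were -0.38 (adjusted p = 0.481) and -0.42 (adjusted p = 0.506).

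With both changes together, in Tg Ang II hearts against WT saline hearts, 15 members rose, against 24% of all genes, and 3 fell, against 24.7%. Without library 965, which lies outside both groups and enters through the shared spread, 22 rose, against 24.4%, and 3 fell, against 25.3%. The median was 0.12 and 73 of 87 were positive. Rpl41 rose by 0.70 ± 0.21 (adjusted p = 0.00475), with 27.7, 49.0 and 65.3 in Tg Ang II hearts, of which 8 of 13 lay above every WT saline heart. Rps12 (0.44 ± 0.133, adjusted p = 0.00498), Rpl39 (0.43 ± 0.152, adjusted p = 0.0158), Rps19bp1 (0.30 ± 0.109, adjusted p = 0.02) and Rpl12 (0.27 ± 0.0753, adjusted p = 0.00231), a protein of the stalk base, rose as well.

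Rpl22, a large-subunit protein studied for its role in T cell development, had 18.8, 22.1 and 24.1 in Tg Ang II hearts and 15.2, 17.1 and 20.9 in WT saline hearts. It rose by 0.28 ± 0.0697 (adjusted p = 0.000907), with 10 of 13 Tg Ang II hearts above every WT saline heart. Rps2 (-0.22 ± 0.0487, adjusted p = 0.000151), Rpl7a (-0.40 ± 0.132, adjusted p = 0.0111) and Rps4l were the genes that fell. Leaving out WT saline number 239 raised the count of members that rose to 27, and Tg Ang II number 783 raised it to 23.

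Between females and males, over all groups, 1 member rose, against 1.86% of all genes, and 0 fell, against 2.56%. This was Rpsa, higher in females by 0.13 ± 0.0312 (adjusted p = 0.0114). With clusters of library numbers as a covariate it did not pass (0.10, adjusted p = 0.0876). The median over members was -0.04, and 0.01 without library 965.

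The ratio of the summed large-subunit to small-subunit counts was close to constant. It averaged 1.301 ± 0.0187 in Tg Ang II hearts, 1.298 ± 0.0222 in Tg saline hearts, 1.27 ± 0.0201 in WT Ang II hearts and 1.26 ± 0.0208 in WT saline hearts. With Rps2 left out of the small subunit the ratios were 1.44 ± 0.0228, 1.43 ± 0.0172, 1.43 ± 0.0214 and 1.43 ± 0.0282, so the genotype gap in the ratio went with that 1 gene.

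Most of the tested factors that build ribosomes rose in Tg hearts under saline. Of 40 assembly factors tested, 26 rose, against 20.4% of all genes, and 1 fell, against 20.2%, in Tg saline against WT saline hearts, with a median of 0.17. Without library 965, 23 rose, against 18.8%, and 1 fell, against 19.4%, with a median of 0.16. Rrp12, which takes part in export of the subunits, rose by 0.90 ± 0.0873 (adjusted p = 5.15e-11). Tsr2, the chaperone of RPS26, rose by 0.42 ± 0.0627 (adjusted p = 5.61e-07), and Tsr1 and Pes1, which mature the small and the large subunit, by 0.42 ± 0.0732 and 0.31 ± 0.0537 (both adjusted p = 8.94e-06). Their summed level was 221 to 267 in Tg Ang II hearts, 216.5 to 247 in Tg saline hearts, 195 to 267 in WT Ang II hearts and 188 to 217 in WT saline hearts. Library 329 held the highest WT Ang II value, and the others ended at 226.

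With Ang II in WT hearts 10 assembly factors rose, against 9.71% of all genes, and 1 fell, against 8.87%. With Ang II in Tg hearts 1 rose, against 4.88%, and 0 fell. In Tg against WT hearts under Ang II 17 rose and 2 fell, against 16.4% each way. In Tg Ang II against WT saline hearts 25 rose, against 24%, and 3 fell, against 24.7%. Of 13 genes of RNA polymerase I and its factors 3 rose in Tg saline hearts, near the 20.4% of all genes, among them Myc, which drives transcription of ribosome genes, by 1.13 ± 0.151 (adjusted p = 7.75e-08).

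The other mRNAs known to carry a TOP motif gave 7 that rose and 2 that fell of 20 in Tg saline hearts, against 20.4% and 20.2% of all genes, with a median of 0.08 (6 and 3, median 0.05, without library 965). Vim (0.54, adjusted p = 1.68e-05), Npm1 (0.22, adjusted p = 0.000553) and Btf3 rose and Eif3f (-0.18, adjusted p = 0.000353) fell. With Ang II in WT hearts 6 rose, against 9.71%, and 0 fell, and in Tg hearts 0 rose, against 4.88%, and 0 fell. Of 23 other initiation and elongation factors 5 rose in Tg saline hearts, close to the 20.4% of all genes, and 2 fell, against 20.2%.

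A list of 19 genes of mTORC1 signalling and the La-related family did not include Larp6 itself. Of these 19 genes 2 rose, against 20.4% of all genes, and 6 fell, against 20.2%, in Tg saline hearts. Eif4ebp1, a repressor of cap-dependent translation (0.55, adjusted p = 1.12e-05), and Larp1 (0.18, adjusted p = 0.00703) rose, and Tsc2, an inhibitor of mTORC1 (-0.32, adjusted p = 9.21e-06), and Larp1b (-0.27, adjusted p = 5.96e-05) fell. Fau, which encodes a ribosomal protein fused to ubiquitin-like sequence, and Rack1, a small-subunit protein, did not pass in Tg saline hearts, at 0.23 and 0.07. Rpl3, of the large subunit, rose there by 0.73 ± 0.0832 (adjusted p = 2.03e-09), and its muscle paralogue Rpl3l fell by 1.40 ± 0.141 (adjusted p = 1.23e-10).

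Markers of other cell types moved with the genotype. In Tg saline against WT saline hearts 10 of 11 tested macrophage markers and 12 of 12 fibroblast markers rose, against 20.4% of all genes. Of 12 endothelial markers 10 fell, against 20.2% of all genes, and of 10 cardiomyocyte markers 1 rose and 6 fell. The macrophage markers summed to 122.5 to 256 in Tg Ang II hearts, 157 to 434 in Tg saline hearts, 86.1 to 242 in WT Ang II hearts and 104 to 134.5 in WT saline hearts, the fibroblast markers to 361 to 702, 541 to 802, 329.9 to 516.5 and 416 to 538 in the same order, and the endothelial markers to 249 to 349, 207 to 341, 301 to 463 and 262.5 to 430.5. With Ang II in WT hearts 2 macrophage and 4 fibroblast markers rose, against 9.71% of all genes, and 1 fibroblast marker fell, against 8.87%. No marker gene tested was at 0 in all libraries, and none of the lymphocyte markers met the limit on low values. The part of these cell types in the ribosomal protein results was not tested.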

How the data were processed

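Libraries of poly(A) RNA (dUTP method, per the labels' protocols) gave raw read counts and FPKM per gene in the authors' deposited table. The submitters' processing notes name cutadapt 1.9, FastQC, HISAT2 2.0.4 and StringTie 1.3.4d, and the counting step, strand setting and genome build are not given in the sources used here. Start and end matched GENCODE M21 for 91.6% of genes. Genes at 1 FPKM or more in 5 or more libraries were tested on the counts with edgeR 4.0.16 (R 4.3.3; quasi-likelihood test, median-of-ratios factors, 0.858 to 1.13) over 8 combinations of sex, genotype and treatment, and p-values were adjusted by the Benjamini-Hochberg method over 11628 genes. Called means an adjusted p under 0.05. DESeq2 1.42.0 and limma 3.58.1 (log2 FPKM with pseudocounts of 1 and 0.1) were alternatives. Intervals given are SE or SD between animals. No 2 libraries of a group agreed within counting noise. The members and gene lists were chosen with earlier results of these data known. Named genes are up to 6 called members with the largest changes in each direction per comparison, the stalk, reference genes, paralogues, Rpsa, Rps6, the most and least abundant, and up to 4 of each other list by p. Any other gene was picked with its values in view. The script was tested on simulated counts. Some genes that this naming rule selects are not reported here.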

Additional observations from a re-analysis of the deposited data

How the results depend on the processing

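No paired analysis was possible because the groups share no replicate numbers in the labels. Over 14 planned settings and the alternatives chosen after seeing the data, the values of the named genes kept their direction and side of the threshold in 2577 cases, lost the call with the same direction in 169, gained it in 108, reversed in 6, and changed sign with no call in either fit in 258. Each of the 50 libraries was also left out in turn. The counts of called members below merge both directions. For most fits the share of all genes called is not given beside them, and that share also changes with the fit. A change in such a count is therefore not shown to be particular to the members.

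Members called in Tg against WT under saline (39) came to 77 with library size only as scaling, 25 with limma at a pseudocount of 0.1 and 24 at 1, 16 without library 965, 18 without libraries 965, 329 and 847, 14 with clusters of library numbers as a covariate, 3 in females, 23 in males, 25 with the length trend removed without 965, 65 with library size only without 965, 5 in males without 965, 24 in males without 329 and 847, 16 with copies summed without 965, and 16 to 50 with single libraries left out. Library size only moved the median of all genes by 0.136 in this comparison and gave 4843 genes higher and 928 lower, against 2376 and 2344.

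For Ang II in WT (15) the counts were 34 with library size only, 24 without 965, 8 without 329 and 847, 28 with clusters, 0 in females, 26 with length removed without 965, 46 with library size without 965, 28 in males without 965, 1 in males without 329 and 847, 23 with copies summed without 965, and 7 to 27 with single libraries left out. For Ang II in Tg (1) it was 2 with length removed, 0 with library size only, both limma fits, the count filter, clusters, either sex, or without 965 or 329 and 847, and 0 to 4 with single libraries left out. For Tg against WT under Ang II (3) the counts were 5 with both limma fits, 5 without 965, 5 with length removed, 9 with that without 965, 6 in males without 965, 1 in males without 329 and 847, 7 with copies summed without 965, and 2 to 6 with single libraries left out.

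For Tg Ang II against WT saline (18) they were 56 with library size only, 30 without 965, 329 and 847, 43 with clusters, 33 with length removed, 8 in females, 7 in males, 40 with length removed without 965, 64 with library size without 965, 9 in males without 965, 7 in males without 329 and 847, 28 with copies summed without 965, and 13 to 30 with single libraries left out. For females against males (1) they were 4 with library size only, 3 with that without 965, 2 without 329 and 847, 2 without those and 965, 0 with clusters, 3 with length removed, with or without 965, and 1 to 2 with single libraries left out. No member passed for the difference in response in any fit with a single library left out (0).

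The median over members in females was 0.048 for Tg against WT under saline, and the median difference in response was 0.023 in females and -0.51 in males. With single libraries left out the medians ranged from 0.12 to 0.26 (Tg against WT, saline), 0.13 to 0.20 (Ang II in WT), -0.11 to 0.01 (Ang II in Tg), -0.07 to -0.01 (Tg against WT, Ang II), -0.31 to -0.15 (difference in response), 0.10 to 0.17 (Tg Ang II against WT saline) and -0.07 to 0.01 (females against males). Rps28 reversed to -0.10 in females for Tg against WT under saline. With library size only, Rps6 reversed to 0.12 with and without 965 and Rplp0 to 0.13 in that comparison, and Rps6 reversed to 0.14 with and without 965 in Tg Ang II against WT saline. With mitochondrial transcripts left out of the total, the members' share was 1.21% in Tg Ang II, 1.23% in Tg saline, 1.22% in WT Ang II and 1.10% in WT saline hearts. The causes of these shifts were not tested.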
